A study of Saccharomyces cerevisiae with 24 samples.

Results

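The genes described here encode the upper part of glycolysis in Saccharomyces cerevisiae, from the phosphorylation of glucose to the triose phosphates, together with the enzymes that make and remove the regulator fructose 2,6-bisphosphate. They were taken by name, without use of any measured value: HXK1, HXK2, GLK1, PGI1, PFK1, PFK2, PFK26, PFK27, FBP26 and TPI1, which are 10 of the 7121 genes in the table. All 10 passed the filter on low values, as did 6449 genes in all. The study sequenced polyadenylated RNA from 24 cultures, which form 8 groups with 3 biological replicates apiece. These were hsh49::Q24P, nam8D, mud1D and wild type (WT) cells in the starvation phase, labelled 48 h, and the same 4 genotypes in log phase. All strains have the BY background, each genotype is a single named strain, and all were grown in synthetic medium with 2% glucose, histidine, leucine, uracil and lysine. HSH49 encodes a subunit of the U2 snRNP of the spliceosome, and NAM8 and MUD1 encode proteins of the U1 snRNP. The allele hsh49::Q24P is named as the labels give it, and nam8D and mud1D are the labels' names for the deletions of NAM8 and MUD1.

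Glycolysis begins with hexokinase or glucokinase, which trap glucose as glucose 6-phosphate, and its main regulated step is phosphofructokinase, a complex of Pfk1 and Pfk2 subunits. Fructose 2,6-bisphosphate activates phosphofructokinase and inhibits fructose 1,6-bisphosphatase, the enzyme that runs this step backwards in gluconeogenesis. Yeast growing on glucose ferments it and represses genes for other carbon sources, and it switches to respiration and then to a resting state as nutrients run out.

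The libraries were checked before the members were read. The deleted genes were low where the labels name them: NAM8 averaged 0.119 ± 0.0804 TPM in starved nam8D cells against 45.3 ± 1.67 TPM in starved WT cells, and MUD1 averaged 3.58 ± 0.213 TPM in starved mud1D cells against 69.2 ± 4.50 TPM in starved WT cells. HSH49 averaged 81.5 ± 11.6 TPM in starved hsh49::Q24P cells and 66.9 ± 3.14 TPM in starved WT cells (SD, n = 3 for each of these means); a base change cannot be checked from these values. The strains also differ in LEU2, a marker for leucine synthesis, which reached at most 465.5 TPM in any mutant library but 3979 to 5907 TPM in the WT libraries, and in URA3, a marker for uracil synthesis, at most 0.459 TPM in mutant libraries against 3.68 to 8.76 TPM in WT libraries. An effect of a mutated gene and one of these markers cannot be told apart. The log-phase hsh49::Q24P libraries held 63.03 to 465.5 TPM of LEU2, while the starved ones held 0.828 to 1.1 TPM, and results that change without one of them say so. Within groups the lowest correlation between replicate libraries was 0.978. The library farthest from its group was hsh49::Q24P starvation replicate 2, with a median absolute difference of 0.27 on the log2 scale from the other 2, against 0.06 to 0.20 elsewhere. Results from starved hsh49::Q24P cells are therefore given with and without it where they rest on it. The summed level of 3 markers of mating type a was 215 to 268 TPM in the starved mutants, 435 to 483 TPM in starved WT cells and 2752 to 4010 TPM in log-phase libraries, and that of 3 alpha markers was 16.2 to 22.01 TPM in starved WT cells and at most 5.87 TPM in every other group. The summed level of 4 sporulation markers was 6.29 to 8.77 TPM in the starved mutants, 14.1 to 14.7 TPM in starved WT cells and 9.94 to 20.7 TPM in log phase. These sums rest on different genes in the growth states. In WT cells SPS4 went from 10.1 to 14.6 TPM in log phase to 0.77 to 1.03 TPM in starvation. DIT1 went from 1.45 to 1.91 TPM to 7.70 to 8.22 TPM there, and SPR3 from 1.07 to 1.23 TPM to 4.93 to 5.02 TPM. Of all these mating-type and sporulation markers, only the alpha factor genes MF(ALPHA)1 and MF(ALPHA)2 were at 0 in any library. Their part in the results below was not tested.

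Values are TPM (a measure of relative transcript abundance), which relate each gene's reads to its length and to the library total, so levels of different genes can be set side by side. In RNA from whole cultures, fewer cells of a type and less RNA per cell cannot be told apart. Differences are on the scale of log2(TPM + 1), fitted with limma over all 6449 genes, with p-values adjusted by Benjamini-Hochberg over all of them. To be called higher or lower, a gene had to differ by 1 or more on this scale with an adjusted p below 0.05. The median gene was itself 0.36 to 0.47 higher in starvation than in log phase in the 4 genotypes.

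With starvation the glycolytic enzymes HXK2, PGI1, PFK1, PFK2 and TPI1 fell, and the regulatory enzymes PFK26 and FBP26 rose. In hsh49::Q24P cells 3 of the 10 members were called higher in starvation (28.5% of all genes were) and 5 lower (14.1% of all genes). In nam8D cells 3 were called higher (27.4%) and 5 lower (10.3%), in mud1D cells 4 higher (28.2%) and 5 lower (14.9%), and in WT cells 2 higher (26.2%) and 6 lower (9.01%). These 5 falls and 2 rises were called in all 4 genotypes, but the rises depended on scaling. FBP26 was called in no mutant with spike-in scaling, and in neither nam8D nor WT cells with median centring or quantile normalization, and PFK26 was not called in nam8D cells with spike-in scaling. The median difference over the members was -0.34 in hsh49::Q24P cells (0.39 over all genes), -0.41 in nam8D cells (0.43), -0.12 in mud1D cells (0.36) and -1.16 in WT cells (0.47). PFK27 fell in WT cells and rose in nam8D and mud1D cells, but neither rise passed with spike-in scaling.

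**Figure D1:**
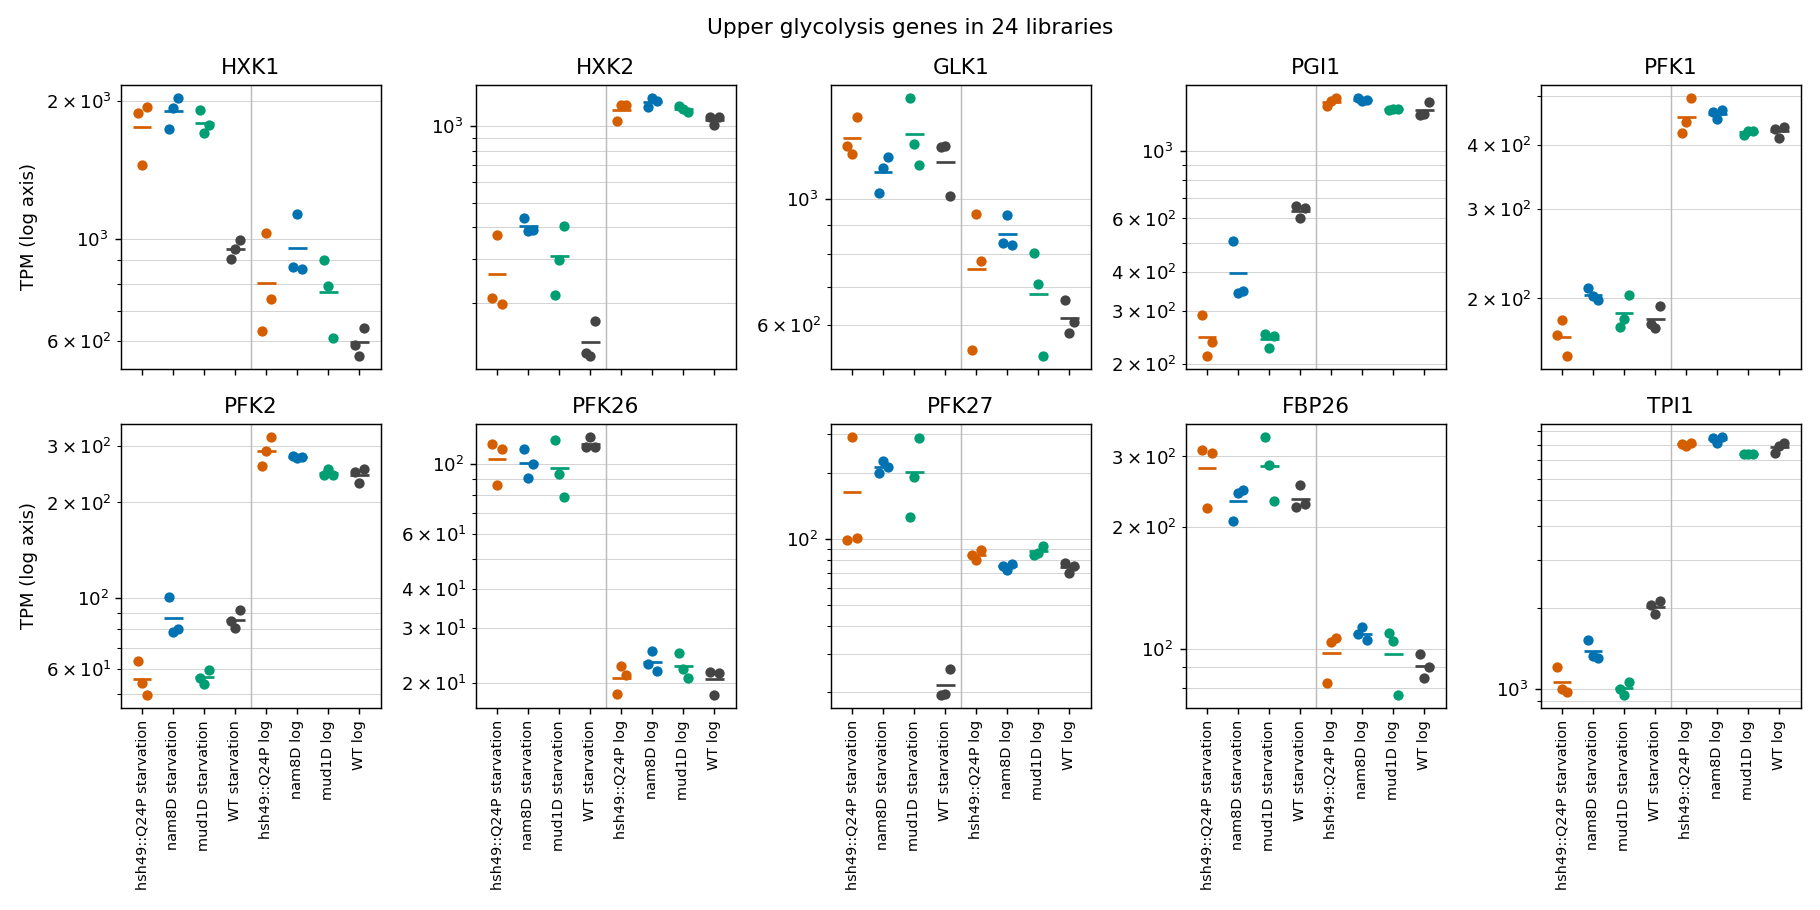
Level of each upper glycolysis gene in TPM (log axis) in the 24 libraries; points are libraries, short lines are group means (n = 3), and the grey line divides starvation groups from log-phase groups. The growth states separate without overlap for 8 genes and overlap for HXK1 and PFK27, and starved WT cells have the lowest PFK27 of all groups. How many of all genes separate in this way was not computed. With no demand on size, 5168 to 5257 of 6449 genes passed the test between growth states in each genotype.

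The makeup of the hexokinase mRNAs differed between growth states. HXK1 encodes the hexokinase known for use on non-fermentable carbon sources, HXK2 the predominant hexokinase during growth on glucose, which also acts in glucose repression, and GLK1 a glucokinase. HXK2 measured 210, 372 and 199 TPM in starved hsh49::Q24P cells, 434, 386 and 391 TPM in starved nam8D cells, 216, 298 and 405 TPM in starved mud1D cells and 128, 124 and 171 TPM in starved WT cells. In log phase it lay between 1009 and 1294 TPM in all 12 libraries. Every starved library was thus below every log-phase one, and every starved mutant library was above every starved WT one. HXK2 fell with starvation, with log2 differences of -2.20 in hsh49::Q24P, -1.63 in nam8D, -1.97 in mud1D and -2.92 in WT cells (SE 0.20 each), and the limma adjusted p was at most 2.36e-07 in each.

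HXK1 measured 1878, 1447 and 1936 TPM in starved hsh49::Q24P cells, 1740, 1930 and 2029 TPM in starved nam8D cells, 1906, 1699 and 1774 TPM in starved mud1D cells and 907, 954 and 995 TPM in starved WT cells. In log phase its levels were 632, 1032 and 743 TPM in hsh49::Q24P, 871, 1133 and 864 TPM in nam8D, 903, 793 and 612 TPM in mud1D and 590.5, 558 and 642 TPM in WT cells. Within each genotype all starved libraries were above all log-phase ones, while starved WT cells overlapped with log-phase mutants. HXK1 rose in hsh49::Q24P cells (1.15 ± 0.16 SE, limma adjusted p = 1.51e-06; 0.99 without hsh49::Q24P log replicate 1) and in mud1D cells (1.24 ± 0.16, limma adjusted p = 5.19e-07), but with median centring these were 0.81 and 0.89, under the size required. The differences were 0.999 in nam8D cells (limma adjusted p = 9.73e-06) and 0.67 in WT cells (limma adjusted p = 0.000708), both short of the size required. The nam8D difference was called with quantile normalization (1.32) and without nam8D log replicate 2 (1.13) or nam8D starvation replicate 1 (1.06). Scaled to the spike-in RNAs, the HXK1 difference was 0.03 in hsh49::Q24P cells, -0.09 in nam8D cells and 0.35 in mud1D cells, none past the test.

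GLK1 ranged from 1024 to 1502 TPM in the starved mutant libraries and measured 1232, 1237 and 1011 TPM in starved WT cells, against 530 to 940 TPM over all log-phase libraries. Its differences between starvation and log phase were 0.79 in hsh49::Q24P, 0.36 in nam8D, 0.94 in mud1D and 0.91 in WT cells, and none reached a difference of 1. The smallest, in nam8D cells, had a limma adjusted p of 0.0503, and with spike-in scaling it was -0.73 (limma adjusted p = 0.0122). In hsh49::Q24P cells spike-in scaling turned the difference to -0.33 (limma adjusted p = 0.251). Other settings called GLK1 higher in starvation. In WT cells it was called with quantile normalization (1.043) and without WT starvation replicate 3 (1.003). In mud1D cells it was called with quantile normalization (1.101) and without mud1D log replicate 1 (1.073) or mud1D starvation replicate 3 (1.029). In the reference, GLK1 overlaps the gene YCL042W on the same strand, and how reads in the overlap were divided is not given in the sources used here.

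Taken as shares of the summed TPM of the 3 genes, HXK2 made up 8.10 ± 3.68% in hsh49::Q24P, 11.9 ± 1.48% in nam8D, 9.11 ± 3.11% in mud1D and 6.29 ± 1.37% in WT cells in starvation (SD, n = 3 each). In log phase its shares were 43.2 ± 4.72% in hsh49::Q24P, 40.7 ± 2.10% in nam8D, 44.97 ± 4.40% in mud1D and 46.7 ± 0.288% in WT cells. HXK1 held the largest share in all 9 starved mutant libraries, at 47.96% to 56.4%, and GLK1 the largest in all 3 starved WT libraries, at 46.4% to 54.4%. In starved WT cells the summed TPM of the 3 genes was 2253 ± 70.2, close to the 2275 ± 110 of log-phase WT cells, while the starved mutants summed to 3290 ± 256 in hsh49::Q24P cells, 3417 ± 205 in nam8D cells and 3398 ± 200 in mud1D cells (SD, n = 3 each). The coding sequences of HXK1 and HXK2 are 77.8% identical over 1458 aligned bases, with a longest identical run of 23 bases, and how reads matching both were treated is not given in the sources used here.

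**Figure D2:**
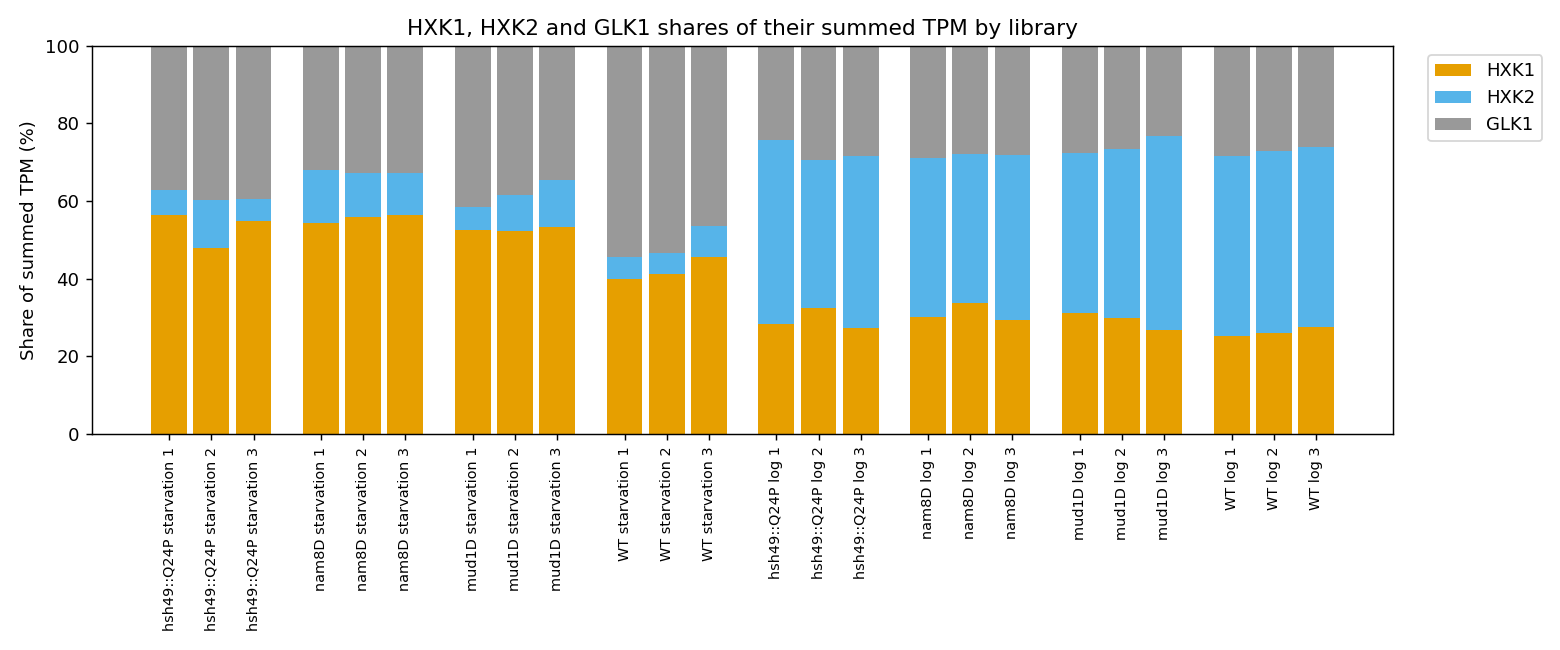
Share of HXK1, HXK2 and GLK1 in their summed TPM (%) for each of the 24 libraries, starvation groups on the left and log-phase groups on the right. HXK2 makes up 38.0% to 49.9% of the sum in log phase and 5.37% to 13.6% in starvation.

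The stretches before the HXK1 and HXK2 coding sequences are shown because these isozymes moved apart. Each runs from 400 to 101 bases before the start codon on the coding strand in RefSeq release R64 of the S. cerevisiae genome (HXK1 at chrVI:255150-255449, minus strand; HXK2 at chrVII:23535-23834, plus strand); the deposited table gives no positions. Capitals mark matches on either strand to CTTCC (the core bound by Gcr1, the activator of glycolytic genes), AGGGG (the stress element of Msn2 and Msn4), CACGTG (an E-box) and the core of the Mig1 site, spelled CCGGGG or with CT or GC or GT in place of its first CC. AGGGG and the Mig1 core both end in the same run of G but need different bases before it.
HXK1: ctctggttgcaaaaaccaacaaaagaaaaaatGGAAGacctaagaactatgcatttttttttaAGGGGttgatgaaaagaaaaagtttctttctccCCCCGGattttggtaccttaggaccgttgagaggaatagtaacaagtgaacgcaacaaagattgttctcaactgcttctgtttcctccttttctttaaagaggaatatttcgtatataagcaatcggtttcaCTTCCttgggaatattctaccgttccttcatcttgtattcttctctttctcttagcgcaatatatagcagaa
HXK2: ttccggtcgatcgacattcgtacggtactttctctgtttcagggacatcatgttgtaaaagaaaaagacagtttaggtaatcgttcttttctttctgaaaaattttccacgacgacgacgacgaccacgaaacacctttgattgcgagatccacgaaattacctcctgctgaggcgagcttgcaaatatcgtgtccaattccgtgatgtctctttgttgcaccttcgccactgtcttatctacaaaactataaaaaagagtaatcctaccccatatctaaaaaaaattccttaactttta
The HXK1 window holds 2 matches to CTTCC, 1 to AGGGG and 1 to the Mig1 core, and the HXK2 window holds none of these letters. Over all 6001 windows of this kind, CTTCC occurred in 47.0%, AGGGG in 23.5%, the Mig1 core in 14.9% and CACGTG in 4.55%. Among the 10 members, 7 windows held CTTCC, 4 AGGGG (HXK1, GLK1, PFK26 and TPI1), 2 the Mig1 core (HXK1 and GLK1) and 2 CACGTG (GLK1 and PFK26). These are matches of letters and not sites known to be bound.

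The backbone enzymes fell in every genotype. PGI1, the glucose 6-phosphate isomerase, measured 289, 213 and 236 TPM in starved hsh49::Q24P cells, 504.5, 343.5 and 347 TPM in starved nam8D cells, 252, 226 and 248.5 TPM in starved mud1D cells and 658, 602 and 647 TPM in starved WT cells. Its 12 log-phase libraries lay between 1309 and 1488 TPM. No starved mutant library reached the starved WT range, and nam8D cells lay between WT and the other mutants. PGI1 fell, with log2 differences of -2.56 in hsh49::Q24P, -1.90 in nam8D, -2.49 in mud1D and -1.09 in WT cells (SE 0.11 each, limma adjusted p at most 3.14e-08).

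PFK1 and PFK2 encode the alpha and beta subunits of phosphofructokinase. PFK1 ranged from 154 to 209 TPM in the starved mutants and was 178, 175 and 194 TPM in starved WT cells, with log2 differences from log phase of -1.42 in hsh49::Q24P, -1.18 in nam8D, -1.18 in mud1D and -1.22 in WT cells (SE 0.07 each, limma adjusted p at most 2.93e-12). PFK2 measured 63.3, 54.4 and 49.8 TPM in starved hsh49::Q24P cells, 100.6, 78.5 and 80.3 TPM in starved nam8D cells, 56.1, 53.9 and 59.7 TPM in starved mud1D cells and 84.6, 80.8 and 91.9 TPM in starved WT cells. The hsh49::Q24P and mud1D libraries were all below the WT ones, and nam8D overlapped with WT. PFK2 fell, with log2 differences of -2.36 in hsh49::Q24P, -1.68 in nam8D, -2.11 in mud1D and -1.501 in WT cells.

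The ratio of the subunit mRNAs also differed between growth states. PFK1 over PFK2 was 3.04 ± 0.335 in hsh49::Q24P, 2.38 ± 0.26 in nam8D, 3.31 ± 0.155 in mud1D and 2.12 ± 0.0335 in WT cells in starvation (SD, n = 3 each), against 1.53 to 1.79 over all 12 log-phase libraries. All starved libraries were above all log-phase libraries.

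TPI1, the triose phosphate isomerase, was the most abundant member in log phase, at 7367 to 8564 TPM. In starvation it measured 1202, 996 and 974 TPM in hsh49::Q24P cells, 1513, 1329 and 1300 TPM in nam8D cells, 1002, 952.5 and 1058 TPM in mud1D cells and 2038, 1895 and 2109 TPM in WT cells. Again the starved WT libraries were above all starved mutant libraries. TPI1 fell, with log2 differences of -2.93 in hsh49::Q24P, -2.60 in nam8D, -2.88 in mud1D and -1.96 in WT cells (SE 0.08 each, limma adjusted p at most 2.43e-14). HXK1 exceeded TPI1 in all 3 starved hsh49::Q24P, all 3 starved nam8D and all 3 starved mud1D libraries, and TPI1 exceeded HXK1 in all 3 starved WT libraries and in log phase. FBA1, the aldolase between phosphofructokinase and TPI1, is not a member and was named after its values were seen; it fell too, with log2 differences of -3.34 in hsh49::Q24P, -2.91 in nam8D, -3.24 in mud1D and -1.88 in WT cells.

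The enzymes of fructose 2,6-bisphosphate behaved differently from the backbone. PFK26 and PFK27 encode 6-phosphofructo-2-kinases, which make the regulator, and FBP26 encodes a fructose 2,6-bisphosphatase, which removes it. PFK26 measured 116, 85.6 and 112 TPM in starved hsh49::Q24P cells, 112, 90.4 and 100.3 TPM in starved nam8D cells, 120, 93.0 and 78.8 TPM in starved mud1D cells and 113, 122.5 and 113 TPM in starved WT cells. All 12 log-phase libraries lay between 18.4 and 25.4 TPM, far below any starved one. PFK26 rose by 2.27 in hsh49::Q24P, 2.06 in nam8D, 2.04 in mud1D and 2.45 in WT cells (SE 0.13 each, limma adjusted p at most 1.67e-11); with spike-in scaling its difference in nam8D cells was 0.995, just short of the size required. FBP26 ranged from 208 to 336 TPM in starvation and from 76.8 to 113 TPM in log phase, and rose by 1.51 in hsh49::Q24P, 1.09 in nam8D, 1.55 in mud1D and 1.37 in WT cells (SE 0.15 each). Under spike-in scaling the FBP26 differences were 0.40 in hsh49::Q24P cells, 0.01 in nam8D cells and 0.67 in mud1D cells, and none was called.

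PFK27 had the largest differences from WT of all members in starvation. It measured 98.5, 292 and 101.2 TPM in starved hsh49::Q24P cells, 199, 227 and 213 TPM in starved nam8D cells, 126, 190.5 and 288 TPM in starved mud1D cells and 19.5, 19.6 and 25.4 TPM in starved WT cells. In log phase it measured 84.7, 79.9 and 89.0 TPM in hsh49::Q24P, 75.3, 72.2 and 77.1 TPM in nam8D, 84.8, 86.3 and 93.2 TPM in mud1D and 77.5, 69.8 and 75.2 TPM in WT cells. All 9 starved mutant libraries were above all 12 log-phase libraries, which were in turn above all 3 starved WT libraries. PFK27 fell with starvation in WT cells (-1.75 ± 0.29 SE, limma adjusted p = 1.56e-05). It rose in nam8D cells (1.49 ± 0.29, limma adjusted p = 9.45e-05) and in mud1D cells (1.11 ± 0.29, limma adjusted p = 0.00168; 0.81 without mud1D starvation replicate 3), and the difference in hsh49::Q24P cells was 0.75 (limma adjusted p = 0.0229), short of the size required. That value rested on hsh49::Q24P starvation replicate 2, without which it was 0.24 (limma adjusted p = 0.268), while without replicate 1 it was 1.018 and called. These differences depended on scaling: with spike-in scaling the differences were 0.42 in nam8D, 0.23 in mud1D and -0.36 in hsh49::Q24P cells, none past the test, and -2.04 in WT cells.

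The mix of the 2-kinase mRNAs differed as well. PFK26 over PFK27 was 0.857 ± 0.489 in hsh49::Q24P, 0.477 ± 0.0817 in nam8D, 0.570 ± 0.345 in mud1D and 5.50 ± 0.935 in WT cells in starvation (SD, n = 3 each), against 0.218 to 0.352 over all log-phase libraries. The summed 2-kinase TPM over that of FBP26 was 0.557 to 0.608 in starved WT libraries, below every other library. In starvation it was 0.688 to 1.69 in hsh49::Q24P, 1.27 to 1.49 in nam8D and 0.732 to 1.58 in mud1D libraries, and in log phase 0.862 to 1.49 over all libraries.

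The windows before the 2-kinase genes are shown because PFK26 rose and PFK27 fell in WT cells, with the same limits and capitals (PFK26 at chrIX:165862-166161 and PFK27 at chrXV:68855-69154, both on the minus strand).
PFK26: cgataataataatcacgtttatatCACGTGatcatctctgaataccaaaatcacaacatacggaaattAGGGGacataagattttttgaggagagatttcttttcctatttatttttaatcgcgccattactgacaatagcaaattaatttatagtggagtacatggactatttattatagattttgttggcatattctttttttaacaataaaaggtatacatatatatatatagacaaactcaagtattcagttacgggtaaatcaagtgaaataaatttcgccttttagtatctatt
PFK27: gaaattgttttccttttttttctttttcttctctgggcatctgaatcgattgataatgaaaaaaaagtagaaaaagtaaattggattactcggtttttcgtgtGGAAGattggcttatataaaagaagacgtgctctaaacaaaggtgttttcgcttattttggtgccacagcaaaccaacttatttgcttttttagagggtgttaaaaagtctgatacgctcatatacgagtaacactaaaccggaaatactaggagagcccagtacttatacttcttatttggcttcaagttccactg
The PFK26 window holds 1 CACGTG and 1 AGGGG, and the PFK27 window 1 match to CTTCC, on the opposite strand. None of the 10 members has an intron in the reference, so a splicing defect in their own mRNA could not be measured here.

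In log phase the mutants were close to WT. No member was called in hsh49::Q24P (0.062% of all genes were called higher and 0.0465% lower), nam8D (0.062% and 0.062%) or mud1D cells (0.109% and 0.202%). Of these 30 differences, 28 were positive, and they ran from -0.08 to 0.67. The medians over all genes were 0.03, -0.001 and 0.03 in hsh49::Q24P, nam8D and mud1D cells. The lowest limma adjusted p of a member was 0.109, and 5 of the 30 had an unadjusted limma p under 0.05. Over all 6449 genes, 358, 608 and 534 had one in those genotypes. The members' 95% intervals reached from -0.59 to 1.00. Their widths differed between members, so these bounds are not a limit that all members share. With 3 libraries a group, changes inside a member's own interval are not excluded. In nam8D cells 8 members did not overlap with WT, all of them higher, as were 16.5% of all genes in the same way. PFK2 and PFK27 did not overlap with WT in hsh49::Q24P cells, nor did HXK2, PFK27 and TPI1 in mud1D cells. The share of all genes was not computed for these.

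In starvation each mutant differed from WT in a few members. In hsh49::Q24P cells PFK27 was called higher (3.94% of all genes were) and PGI1 lower (7.41%). In nam8D cells HXK2 and PFK27 were called higher (4.39%) and no member lower (7.86%). In mud1D cells HXK2 and PFK27 were called higher (4.57%) and PGI1 and TPI1 lower (8.87%). With the test alone and no demand on size, 6 members passed in hsh49::Q24P cells (60.3% of all genes did), 5 in nam8D cells (60%) and 6 in mud1D cells (64.6%), so the members' shares were near those of all genes. The median over the members was 0.01 in hsh49::Q24P cells (-0.09 over all genes), -0.01 in nam8D cells (-0.03) and 0.10 in mud1D cells (-0.10). The 3 comparisons share the same WT libraries.

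PFK27 was higher than in WT by 2.69 ± 0.29 in hsh49::Q24P cells, 3.26 ± 0.29 in nam8D cells and 3.10 ± 0.29 in mud1D cells (SE; limma adjusted p = 1.93e-07, 1.55e-08 and 2.44e-08), which are folds of 6.44, 9.55 and 8.57 in TPM + 1. Without hsh49::Q24P starvation replicate 2 the first was 2.17. HXK2 was higher by 1.52 ± 0.20 in nam8D (limma adjusted p = 2.00e-06) and 1.08 ± 0.20 in mud1D cells (limma adjusted p = 9.01e-05). The HXK2 difference in hsh49::Q24P cells was 0.84 (limma adjusted p = 0.00120), and without replicate 2 it was 0.55. The HXK2 call in mud1D cells rested on single libraries: its difference was 0.86 without mud1D starvation replicate 3, and without WT starvation replicate 2 it also fell just short of the size required. HXK1 differed by 0.87, 0.99 and 0.91 in hsh49::Q24P, nam8D and mud1D cells, each just under the size required with a limma adjusted p of at most 0.000109. It was called in all 3 after quantile normalization, at 1.04, 1.16 and 1.102, and in none with spike-in scaling, at 0.44, 0.57 and 0.70. Median centring called it in nam8D (1.05) and mud1D cells (1.01). Without hsh49::Q24P starvation replicate 2 it was 1.002 and called in hsh49::Q24P cells. In nam8D cells it was called without WT starvation replicate 3 (1.03) or nam8D starvation replicate 1 (1.06).

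PGI1 differed from WT by -1.38 ± 0.11 in hsh49::Q24P (limma adjusted p = 6.55e-09) and -1.39 ± 0.11 in mud1D cells (limma adjusted p = 4.53e-09), and by -0.70 in nam8D cells (limma adjusted p = 3.30e-05). TPI1 differed by -0.93, -0.55 and -1.003 in hsh49::Q24P, nam8D and mud1D cells, with limma adjusted p at most 1.08e-05. The mud1D value is at the edge of the call. It was -0.90 with median centring and -0.97 to -0.99 without 1 of 3 single libraries (mud1D starvation replicate 2, WT starvation replicate 1 or WT starvation replicate 3). The hsh49::Q24P value is at this edge too. It was called with quantile normalization (-1.01), with spike-in scaling (-1.36) and without hsh49::Q24P starvation replicate 1 (-1.03). PFK2 differed by -0.62 in hsh49::Q24P and -0.59 in mud1D cells, and by 0.00 in nam8D cells (95% interval -0.19 to 0.20). GLK1, PFK1, PFK26 and FBP26 passed no test in any of the 3, and their 95% intervals lay within -0.56 and 0.57.

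**Figure D3:**
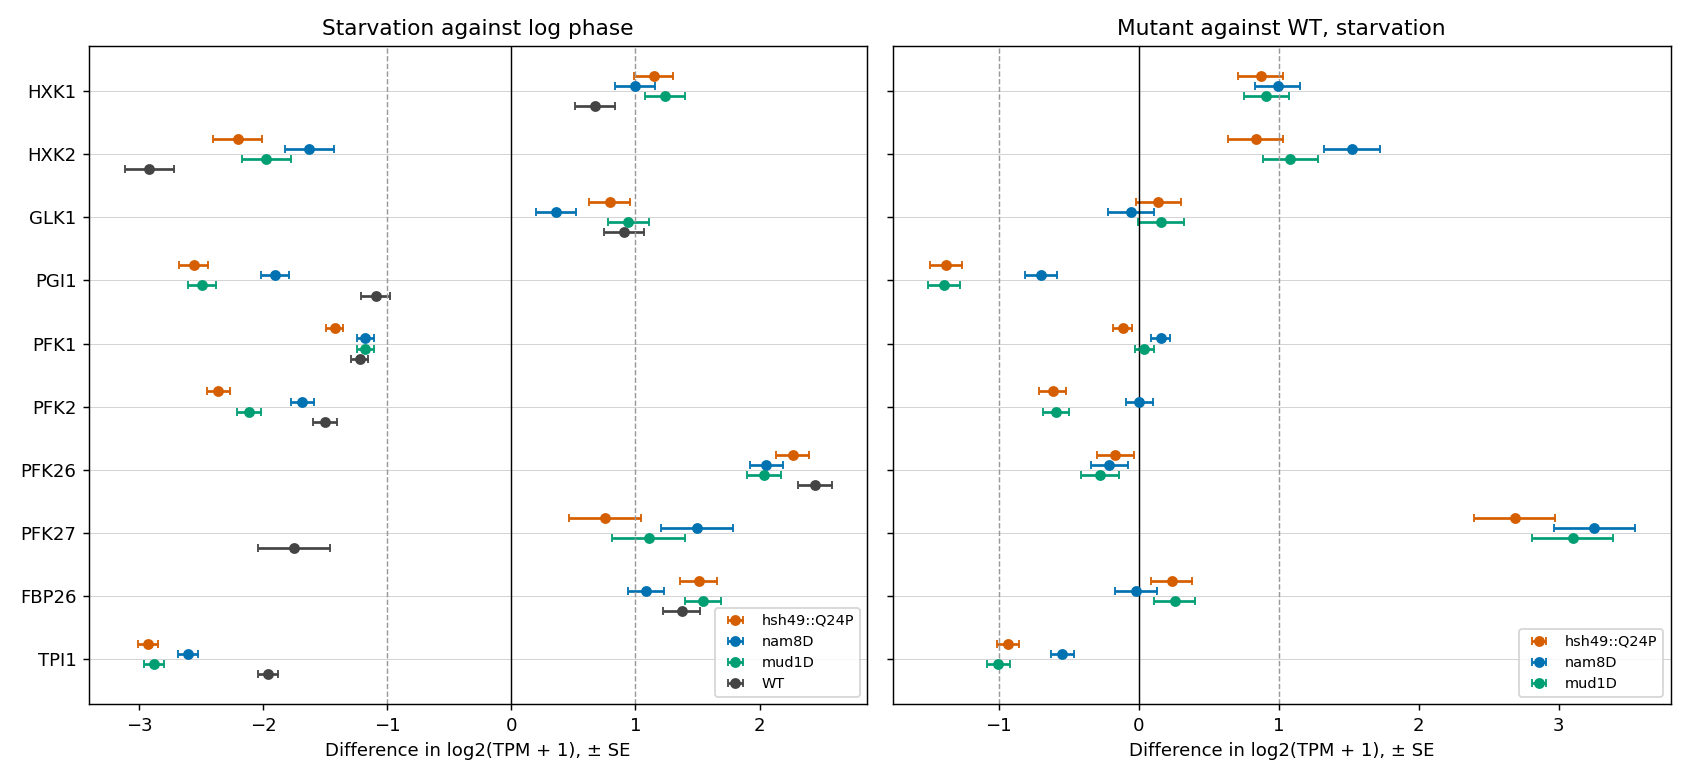
Difference in log2(TPM + 1) with its standard error for each gene, starvation against log phase in each genotype (left) and mutant against WT in starvation (right); dashed lines mark differences of 1 and -1. PFK27 lies at 2.69 to 3.26 in the mutants on the right and on opposite sides of 0 in mutants and WT on the left, where spike-in scaling moves the hsh49::Q24P point to -0.36.

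The starvation responses themselves were compared as interaction terms. PFK27 responded differently from WT in hsh49::Q24P cells (2.50 ± 0.41 SE, limma adjusted p = 6.67e-05; 3.35% of all genes were called in this direction), in nam8D cells (3.24 ± 0.41, limma adjusted p = 4.12e-06; 4.22%) and in mud1D cells (2.85 ± 0.41, limma adjusted p = 1.41e-05; 3.99%). PGI1 fell further than in WT in hsh49::Q24P cells (-1.47 ± 0.16, limma adjusted p = 8.19e-07; 7.88% of all genes were called in this direction) and in mud1D cells (-1.40 ± 0.16, limma adjusted p = 1.18e-06; 9.57%). No member was called lower in nam8D cells (8.76% of all genes were), where the PGI1 term was -0.81. The fall of HXK2 was smaller than in WT in nam8D cells (1.29 ± 0.28, limma adjusted p = 0.000925). Its terms in mud1D (0.95) and hsh49::Q24P cells (0.71) were positive too but under the size required. The mud1D term was called with median centring (1.08) and without WT starvation replicate 3 (1.09) or mud1D starvation replicate 1 (1.17). TPI1 terms were -0.97, -0.65 and -0.92 in hsh49::Q24P, nam8D and mud1D cells, under the size required, and all were called with spike-in scaling. The hsh49::Q24P term was also called with quantile normalization (-1.012) and without WT starvation replicate 2 (-1.013) or hsh49::Q24P starvation replicate 1 (-1.065). For PFK27 the term stayed called with spike-in scaling, at 1.68, 2.46 and 2.27 in hsh49::Q24P, nam8D and mud1D cells, while the HXK2 term in nam8D cells was 0.51 and no longer passed.

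Between mutants no member was called in starvation. For hsh49::Q24P over nam8D 1.01% of all genes were called higher and 0.186% lower, for hsh49::Q24P over mud1D 0.217% and 0.0465%, and for nam8D over mud1D 0.388% and 0.729%. With no demand on size, 5 members passed for hsh49::Q24P over nam8D (24.5% of all genes did): HXK2 (-0.69), PGI1 (-0.68), PFK1 (-0.27), PFK2 (-0.62) and TPI1 (-0.39). For nam8D over mud1D 3 passed (23.6% of all genes): PGI1 (0.69), PFK2 (0.60) and TPI1 (0.46). For hsh49::Q24P over mud1D none passed (0.837% of all genes did). The 95% interval for PFK27 was -1.02 to 0.19, and differences within it are not excluded for that gene. Without hsh49::Q24P starvation replicate 2, PFK27 was called lower in hsh49::Q24P than in nam8D cells, with a difference of -1.08.

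Replicates of starved hsh49::Q24P and mud1D cells were not alike in the regulatory enzymes. The libraries hsh49::Q24P replicate 2 and mud1D replicate 3 had the highest PFK27, 292 and 288 TPM, and the lowest PFK26, 85.6 and 78.8 TPM, in their groups, and in both groups HXK2 was highest and FBP26 lowest in the same library. The same libraries had the lowest FBP1 of their groups, 67.7 and 57.1 TPM, against 246 and 406.5 TPM and 400 and 164 TPM in the others. FBP1 encodes fructose 1,6-bisphosphatase. Starved nam8D libraries shared only part of this pattern. There replicate 2 had the highest PFK27, 227 TPM, and the lowest PFK26, 90.4 TPM. The highest HXK2, 434 TPM, and the lowest FBP26 and FBP1 were instead in replicate 1, which had the lowest PFK27, 199 TPM.

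**Figure D4:**
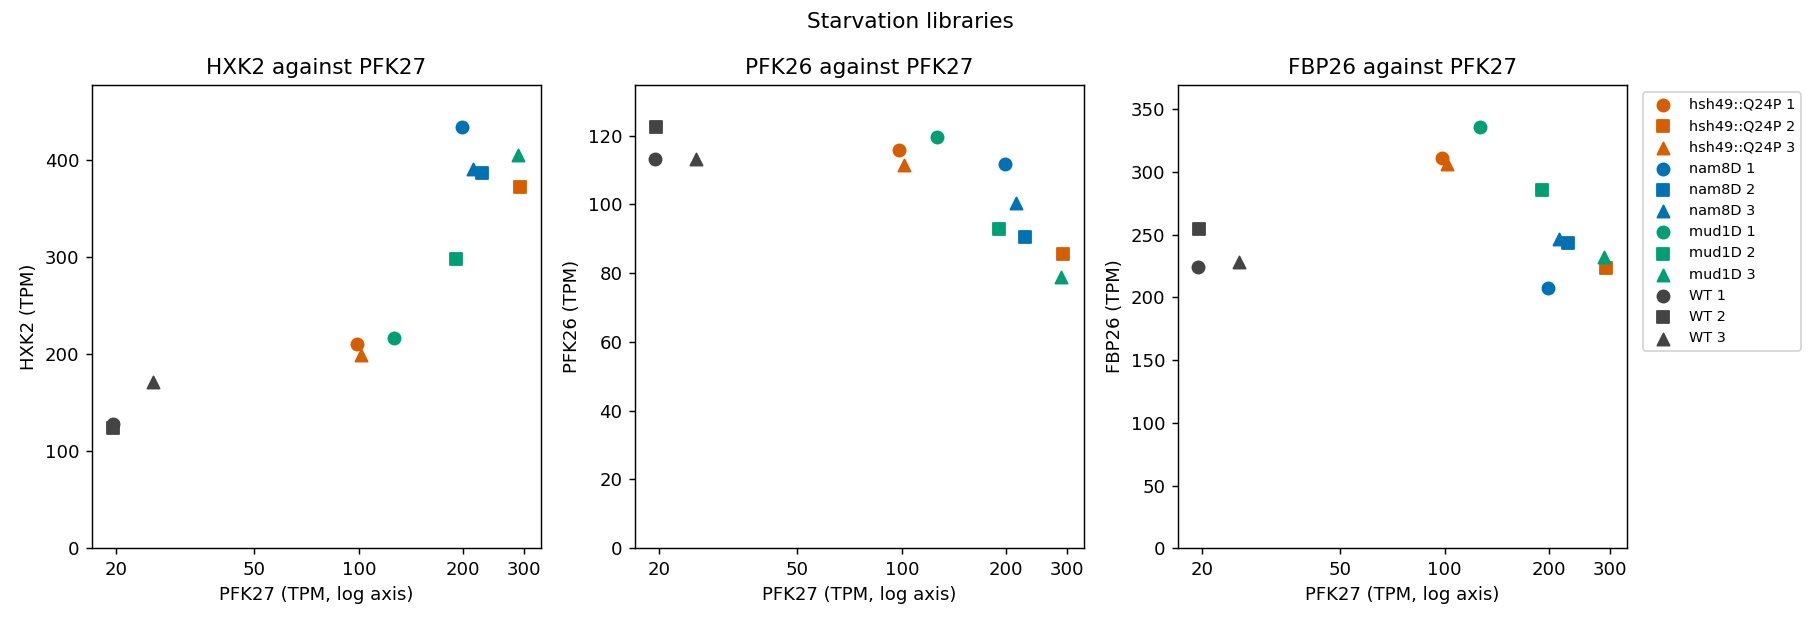
HXK2, PFK26 and FBP26 (TPM, linear axes from 0) against PFK27 (TPM, log axis) in the 12 starvation libraries, with colour for genotype and marker shape for replicate. The WT libraries lie at 19.5 to 25.4 TPM of PFK27, and hsh49::Q24P replicate 2 and mud1D replicate 3 lie at the right edge with high HXK2 and low PFK26.

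The genes around the members were read from lists of pathway neighbours. Of 9 lower glycolysis genes, none was called higher with starvation and 8 were lower in hsh49::Q24P, 8 in nam8D, 7 in mud1D and 6 in WT cells, with medians of -3.48, -3.02, -3.29 and -1.90 in those genotypes. Over all genes, 26.2% to 28.5% were called higher with starvation and 9.01% to 14.9% lower in the 4 genotypes. ENO2, an enolase, fell, with log2 differences of -6.54, -6.17, -6.26 and -4.52 in hsh49::Q24P, nam8D, mud1D and WT cells. For TDH2, a glyceraldehyde 3-phosphate dehydrogenase, they were -5.33, -4.90, -5.25 and -3.42. Against WT in starvation, 7 of the 9 were lower in hsh49::Q24P cells, 4 in nam8D cells and 6 in mud1D cells, and none was higher. Of all genes, 7.41%, 7.86% and 8.87% were called lower in those mutants, and 3.94%, 4.39% and 4.57% higher.

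Of 4 genes for the reactions that run against glycolysis, 3 were called higher with starvation in each genotype, and FBP1 and PCK1 were lower in the starved mutants than in starved WT cells. Over all genes, 26.2% to 28.5% were called higher with starvation. FBP1 rose by 6.67 in hsh49::Q24P, 4.20 in nam8D, 6.27 in mud1D and 8.77 in WT cells, and averaged 240 ± 170 TPM, 42.7 ± 25.1 TPM, 207 ± 175 TPM and 889 ± 162 TPM in those starved groups (SD, n = 3 each). The size of its rise depended on the pseudocount: with 5 in place of 1 it was 5.06 in hsh49::Q24P, 2.80 in nam8D, 4.75 in mud1D and 7.20 in WT cells. Without hsh49::Q24P starvation replicate 2 the rise of FBP1 in those cells was 7.40, without nam8D starvation replicate 1 it was 4.81 in nam8D cells, and in mud1D cells it was 5.59 without starvation replicate 1 and 6.98 without replicate 3. PCK1, phosphoenolpyruvate carboxykinase, averaged 303 ± 195 TPM in hsh49::Q24P, 80.9 ± 38.3 TPM in nam8D, 242 ± 172 TPM in mud1D and 2495 ± 286 TPM in WT cells in starvation. Against WT in starvation FBP1 differed by -2.21, -4.56 and -2.49 and PCK1 by -3.34, -5.06 and -3.66 in hsh49::Q24P, nam8D and mud1D cells, with limma adjusted p at most 0.00323. Single libraries moved these sizes but ended no call. Without hsh49::Q24P starvation replicate 2, FBP1 differed by -1.47 (limma adjusted p = 0.0298) and PCK1 by -2.61 in hsh49::Q24P cells. Without nam8D starvation replicate 1, FBP1 differed by -3.95 in nam8D cells. In mud1D cells FBP1 differed by -3.17 without starvation replicate 1 and by -1.77 without replicate 3, and PCK1 by -3.0 without replicate 3.

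Branches from glucose 6-phosphate and triose phosphate changed in both directions. Of 8 genes at glucose 6-phosphate, 4 fell in each mutant and 3 in WT cells with starvation, while 1 rose in each mutant and 2 in WT. Over all genes, 9.01% to 14.9% were called lower with starvation and 26.2% to 28.5% higher in the 4 genotypes. PGM1, a phosphoglucomutase, fell, with log2 differences of -3.002, -2.93, -3.24 and -2.53 in hsh49::Q24P, nam8D, mud1D and WT cells. Of 6 genes of the glycerol branch, 3 fell in each mutant and 2 in WT cells, and 2 rose in every genotype. The same shares over all genes apply to these counts. GPP1, a glycerol 3-phosphate phosphatase, fell, with log2 differences of -3.18, -2.61, -3.05 and -2.96 in those genotypes. GPD1, a glycerol 3-phosphate dehydrogenase, was lower than in starved WT cells, with differences of -2.35 in hsh49::Q24P cells, -2.79 in nam8D cells and -2.60 in mud1D cells.

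Among 13 regulators of glycolytic genes, 3 were called higher than in WT in each starved mutant. Of all genes, 3.94%, 4.39% and 4.57% were called higher in starved hsh49::Q24P, nam8D and mud1D cells. MIG2, a glucose-dependent repressor, measured 67.2, 131 and 56.7 TPM in starved hsh49::Q24P cells, 130, 135 and 137 TPM in starved nam8D cells, 50.5, 67.9 and 114 TPM in starved mud1D cells and 11.2, 8.69 and 10.3 TPM in starved WT cells. Each starved mutant library was above each starved WT library, and the differences were 2.87, 3.62 and 2.75 (limma adjusted p at most 2.21e-08). The other two were MIG1, the main repressor of glucose-repressed genes, and HAP4, an activator of respiratory genes. MIG1 was higher by 1.23 in hsh49::Q24P cells, 1.35 in nam8D cells and 1.21 in mud1D cells. HAP4 was higher by 1.39 in hsh49::Q24P cells, 1.31 in nam8D cells and 1.72 in mud1D cells; without hsh49::Q24P starvation replicate 2 the first was 0.89 and not called. With spike-in scaling MIG1 was called in no mutant (0.80, 0.92 and 0.99) and HAP4 in neither hsh49::Q24P (0.97) nor nam8D cells (0.88). GCR1 fell with starvation in the mutants, with log2 differences of -1.96 in hsh49::Q24P cells, -1.77 in nam8D cells and -1.88 in mud1D cells. Its difference in WT cells was -1.007, and without WT log replicate 1 it was -0.97 and not called. Of the 3 paralogs outside the members, EMI2, a gene similar to GLK1, was higher than in starved WT cells by 1.13 in hsh49::Q24P cells, 1.14 in nam8D cells and 1.12 in mud1D cells, with no call under spike-in scaling (0.71, 0.71 and 0.90). YLR345W, similar to PFK26, rose with starvation by 1.61, 1.25, 1.61 and 1.41 in hsh49::Q24P, nam8D, mud1D and WT cells, but was called in no mutant with spike-in scaling (0.49, 0.17 and 0.73).

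The genes whose 8 group means were most like those of a member, by Pearson's r of log2(TPM + 1) among 4773 coding genes, were found for each member as a description; the 8 points share libraries and fall into starved and log-phase groups. For PFK27 they were OYE2 (r = 0.995) and STU2 (0.984), for HXK1 BAG7 (0.985) and LRE1 (0.985), for HXK2 ECM33 (0.995) and EFM6 (0.995), and for GLK1 GCY1 (0.989) and YDC1 (0.985). For the other members r was 0.998 or more: ERG11 and VMA13 for PGI1, SFB3 and GPP1 for PFK1, OST3 and ELO3 for PFK2, DGA1 and YMR31 for PFK26, GIP2 and SWR1 for FBP26, and GPM1 and TDH2 for TPI1. Among the members, PFK27 had the weakest likeness to the rest, with r between -0.488 for PGI1 and 0.635 for HXK1.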

How the data were processed

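The table holds TPM values deposited by the authors for 24 libraries, between 999639 and 999881 in total for each. It holds no counts, so depth is unknown and no counting interval is given. FastQC 0.11.9, Trimmomatic 0.39 and STAR 2.7.9a are named per the submitters' processing notes; build, annotation, strand and the treatment of reads matching several genes are not given in the sources used here. Per the labels, libraries were directional and made from poly(A) RNA. Replicates are biological replicates per the labels.

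Of 8009 lines, 7121 name a gene; 92 spike-in RNAs, other features and 4 empty lines stayed out of the tests. Genes with at least 1 TPM in at least 3 libraries were tested (6449) as log2(TPM + 1), computed here from the deposited values, with limma 3.58.1 in R 4.3.3: 1 model with 8 group means, an intensity trend and 16 residual degrees of freedom. Benjamini-Hochberg adjustment ran over genes within each of 16 comparisons. Shares and ratios were computed per library without a test. Promoter windows and introns came from RefSeq R64 by gene identifier (6050 matched). The script was tested on simulated data.

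Members, lists and comparisons were chosen with earlier results of these data known. All members are named. From each other list, up to 2 called genes without overlap between replicates are named per comparison, plus genotype and mating-type checks and the 2 most like genes of each member with a mean of at least 10 TPM. Alternatives were pseudocounts of 0.1 and 5, no filter, a minimum of 10 TPM, median centring, quantile normalization, spike-in scaling, a replicate block, only the groups compared, no trend, and leaving out each library.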

Additional observations from a re-analysis of the deposited data

Results flagged for a closer look

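Under starvation, 6 responses of members were called different between a mutant and WT by the interaction term of the limma model. For PFK27 the term was 2.50 in hsh49::Q24P cells. It was 3.24 in nam8D cells and 2.85 in mud1D cells. For PGI1 the terms were -1.47 in hsh49::Q24P and -1.40 in mud1D cells, and for HXK2 the term was 1.29 in nam8D cells. The 3 mutants were set against the same WT libraries, which also differ from them in LEU2, so these are not independent observations.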

How the results depend on the processing

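Depth is unknown in a TPM table, and 3 libraries a group limit what is detectable. Over 160 member differences, both pseudocounts kept every call and the direction of every difference that passed the test. Both other filters, the fit of only the groups compared, the fit without a trend and the replicate block each kept every call too. By their design these leave the size and direction of a difference as they were and can change only its p-value. In the main fit the replicate numbers were not treated as pairs. Over 84 same-numbered pairs the correlation of deviations ran from -0.671 to 0.463, with 19 over 0.1. Differently numbered libraries were not set beside them, so an effect shared by same-numbered libraries of some groups was not tested. Every group holds the same replicate numbers, so the replicate block could not move a difference. The PFK27 differences from WT in starvation thus stayed at 2.69, 3.26 and 3.10 in hsh49::Q24P, nam8D and mud1D cells.

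Median centring left 1 member called higher with starvation in WT cells and 2 in mud1D cells, 1 lower in mud1D than in WT cells in starvation, and 2 with a positive interaction term in mud1D cells. Of all 6449 genes, 845, 1209, 453 and 362 were called in these comparisons and directions. Quantile normalization called 2 higher and 2 lower in starved hsh49::Q24P than in starved WT cells, and 2 with a negative interaction term there. Over all genes these counts were 332, 354 and 372. With either, FBP26 was no longer called in WT cells (0.89 and 0.97) or in nam8D cells (0.67 and 0.69), nor was PFK27 in mud1D cells (0.76 and 0.68). With median centring alone, HXK1 was no longer called in hsh49::Q24P (0.81) or mud1D cells (0.89).

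Spike-in scaling assumes equal amounts added to each library, which the labels do not state. With it the median starvation difference of all genes was -0.63 in hsh49::Q24P cells (0.39 without it), -0.55 in nam8D cells (0.43), -0.43 in mud1D cells (0.36) and 0.20 in WT cells (0.47). With it, 1, 0 and 1 members were called higher with starvation in hsh49::Q24P, nam8D and mud1D cells, as were 528, 508 and 684 of all 6449 genes. Against WT in starvation, 3 were lower in hsh49::Q24P (1122 of all genes were), 1 lower in nam8D (1072) and 1 higher in mud1D cells (162). The counts higher in hsh49::Q24P and nam8D cells and lower in mud1D cells stayed as without it. Negative interaction terms numbered 4, 5 and 3, against 2587, 2141 and 1838 over all genes. The only positive term called in each mutant was that of PFK27. Spike-in scaling reversed the starvation difference of GLK1 (-0.33) and PFK27 (-0.36) in hsh49::Q24P and of HXK1 in nam8D cells (-0.0871). It also reversed the interaction terms of HXK2 in hsh49::Q24P (-0.10) and HXK1 in mud1D cells (-0.0196). The cause was not tested.

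Leaving out 1 library gave 1 to 2 members higher and 1 to 2 lower for hsh49::Q24P against WT in starvation, and 1 to 2 of each for mud1D. Members higher for nam8D ran from 2 to 3. Negative interaction terms in hsh49::Q24P and positive ones in mud1D cells ran from 1 to 2, and members lower in hsh49::Q24P than in nam8D cells from 0 to 1. Of 3840 such member results 3818 kept direction and call, 7 lost and 15 gained a call, and none that passed the test reversed.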
